A study of Mus musculus with 2 samples.

Results

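The cytosolic ribosomal protein genes of mouse ovarian cells were described across 5 kinds of cell. They were taken by symbol, as every symbol in both count tables that begins with Rps or Rpl and a digit, together with Rplp0, Rplp1, Rplp2 and Rpsa. Of 99 matching symbols, 10 of the Rps6k kinases and 3 pseudogene symbols were left out. This gave 86 of the 21018 genes in both tables, 34 named for the small subunit and 52 for the large subunit. The standard set made up 77 of them. The other 9 were the paralogs Rpl22l1, Rps27l, Rps27rt, Rpl39l, Rpl10l, Rpl3l, Rpl36al and Rpl7l1, and Rps19bp1, whose product binds Rps19 and is not itself a ribosomal protein. Fau and Rack1 also encode ribosomal proteins but have symbols outside the rule, and their values are given separately.

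Ovaries of C57BL pups at postnatal day 3 were profiled with the 10x Genomics 3′ assay in 2 libraries, 1 for each treatment group. Mothers in both groups were given MLT (melatonin) from E16.5, before birth, so neither group is untreated. In the DEHP_MLT group they also received DEHP, a phthalate plasticizer, by gavage, and in the MLT group DMSO replaced it. How many pups or ovaries went into a library the sources used here do not say. With 1 library per group no test between the groups was possible. The title of each sample goes against the name of its own deposited table: the one titled MLT comes with a table named for DEHP_MLT, and the reverse. Titles were followed, the libraries are called labelled MLT and labelled DEHP_MLT, and every direction between them would turn around if the table names were right. Differences between kinds of cell within a library do not depend on this.

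Each cytosolic ribosome is built from a small subunit, which reads the mRNA, and a large subunit, which joins amino acids. The ribosomal proteins are made in near-equal numbers, and their mRNAs are among the most abundant in growing cells. Most of these mRNAs start with a run of pyrimidines, the 5′ terminal oligopyrimidine (TOP) tract, through which mTORC1 and LARP1 set how strongly they are translated. Oocytes of the newborn mouse ovary are being enclosed in primordial follicles and lay up ribosomes as they grow. Late erythroid cells fill with haemoglobin mRNA and lose their ribosomes as they mature. In the male mouse germ line, retrocopies such as Rpl10l stand in for X-linked ribosomal protein genes that are silent in meiosis.

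The deposited tables held 5277 barcodes and 80657690 UMIs (unique molecular identifiers, 1 per captured transcript) in the library labelled MLT, and 4819 barcodes and 117355739 UMIs in the library labelled DEHP_MLT. The lowest barcode had 2031 UMIs in the first and 6923 in the second, and 4 barcode sequences occurred in both libraries. Cells were assigned by the summed level of marker genes, without use of the ribosomal protein genes, and cells that passed more than 1 gate were left out (22.3% and 21.7% of cells). This gave 270 and 687 germ cells, 756 and 343 granulosa cells, 2421 and 1820 stromal cells, 155 and 91 endothelial cells, and 33 and 584 erythroid cells, with the library labelled MLT first here and in every pair of values that follows. All fixed markers found in the tables were higher in their own class than in the other classes in both libraries, except Wnt4, which was at 179 and 163 CPM (UMIs per 1000000 of the class's summed UMIs) in granulosa cells and at 260.0 and 179 elsewhere. The gates used these same markers, so their higher levels in the own class were largely set in advance and do not check the classes. Depth was unequal in places, with a median of 8599 against 59043 UMIs per germ cell. Free haemoglobin RNA was also unequal, at 0.0355% to 0.0918% of UMIs in the non-erythroid classes labelled MLT and 0.563% to 0.713% in those labelled DEHP_MLT. Doublets were not called, so named classes may hold some.

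The sequences at the annotated transcription start are given for some members with a run of pyrimidines there and some without. In the RefSeq promoter table of build GRCm38.p6, 66 of the 86 members had an entry by symbol, 57 of the 77 standard genes and all 9 others. The deposited tables name mm9, so the positions below belong to GRCm38.p6 and were matched by symbol alone. The window printed runs from 10 bases before the annotated start to 20 bases from it. Capitals mark an unbroken run of at least 7 pyrimidines, counted from a C within 5 bases of the start. Pyrimidines just before that C were not counted, so a marked stretch can be part of a longer run that opens further upstream, as in Rpl7a.
Rpl35 (chr2:39005112-39005141, minus strand): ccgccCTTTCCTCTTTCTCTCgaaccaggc
Rpl7a (chr2:26910797-26910826, plus strand): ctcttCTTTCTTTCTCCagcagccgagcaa
Rpl15 (chr14:18270967-18270996, minus strand): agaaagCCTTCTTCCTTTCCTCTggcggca
Rps9 (chr7:3704031-3704060, plus strand): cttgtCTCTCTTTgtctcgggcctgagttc
Rps27 (chr3:90213629-90213658, minus strand): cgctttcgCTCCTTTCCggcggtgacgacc
Rps26 (chr10:128626487-128626516, minus strand): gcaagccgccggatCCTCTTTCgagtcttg
Rpl38 (chr11:114668570-114668599, plus strand): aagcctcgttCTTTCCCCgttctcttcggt
Rpl22l1 (chr3:28805498-28805527, plus strand): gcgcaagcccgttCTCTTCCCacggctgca
These 8 members, each of which was called in at least 1 class in the tests below except Rps27, the partner of 2 paralogs, carry such a run. The following 8, the paralogs and partners that the later results turn on with Rplp0 and Rpl9, carry none in this window.
Rplp0 (chr5:115559457-115559486, plus strand): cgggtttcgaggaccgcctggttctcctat
Rpl9 (chr5:65391412-65391441, minus strand): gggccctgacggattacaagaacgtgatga
Rpl39 (chrX:37085203-37085232, minus strand): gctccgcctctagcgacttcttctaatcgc
Rpl39l (chr16:10170218-10170247, plus strand): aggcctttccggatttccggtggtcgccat
Rpl10 (chrX:74270806-74270835, plus strand): tacagtggaagataggccgcctatataagg
Rpl10l (chr12:66284382-66284411, minus strand): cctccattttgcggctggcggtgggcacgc
Rps27l (chr9:66946076-66946105, plus strand): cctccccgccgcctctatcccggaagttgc
Rpl22 (chr4:152324426-152324455, plus strand): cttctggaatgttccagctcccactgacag
The run was found in 22 of 57 standard genes (38.6%), in 1 of the 9 others (Rpl22l1, 11.1%) and in 8.46% of 14853 other genes. The letters CCGGAAG, searched on both strands in the 300-base table entries, were found in 42.1% of standard genes against 15.4% of other genes. CTTTCC was found in 50.9% against 30.3%. These shares are void as a statement on the whole set, because under 80% of the standard genes had an entry. A missing run means only that the letters are not in this window, and a start site annotated some bases off moves the window. Genes of both kinds were called in the tests that follow.

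Ribosomal protein mRNA took the largest share of UMIs in endothelial and stromal cells, a lower and similar share in germ and granulosa cells, and the smallest share in erythroid cells. In endothelial cells the 86 genes gave 24.5% and 28.6% of the summed UMIs. In stroma they gave 23.3% and 27.2%. Endothelial cells were above stroma in each library, by less than the libraries differed from each other. Germ cells stood at 21.1% and 22.2%, and granulosa cells at 18.4% and 23.7%, so these neighbours changed places between the libraries. The mean over the libraries was 26.5% ± 2.85 (SD, n = 2) in endothelial cells, 25.3% ± 2.73 in stroma, 21.6% ± 0.791 in germ cells and 21.1% ± 3.72 in granulosa cells. The germ and granulosa means do not differ beyond this spread, nor do the endothelial and stromal means. Each SD is over libraries that carry different treatments, and treatment and library cannot be told apart.

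Erythroid cells gave 3.13% (exact binomial 95% interval 3.08% to 3.19%) and 12.4% (12.3% to 12.4%), a mean of 7.75% ± 6.53 (n = 2). The intervals cover counting error only. Haemoglobin genes took 81.0% and 45.2% of the erythroid UMIs. With haemoglobin and mitochondrial UMIs left out of the total, the erythroid share was 17.0% and 23.1%, and the other classes lay at 22.3% and 23.6% (germ), 19.9% and 26.3% (granulosa), 24.1% and 28.2% (stroma) and 25.5% and 30.03% (endothelial). Erythroid cells were still the lowest class in each library on this total. With each cell weighted equally, stroma (27.5%) stood above endothelial cells (27.4%) in the library labelled DEHP_MLT. Small-subunit genes gave 42.2% to 45.4% of the ribosomal protein UMIs over the 10 class sums, with the erythroid cells labelled MLT at the lower end and the germ cells labelled MLT at the upper.

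**Figure D1:**
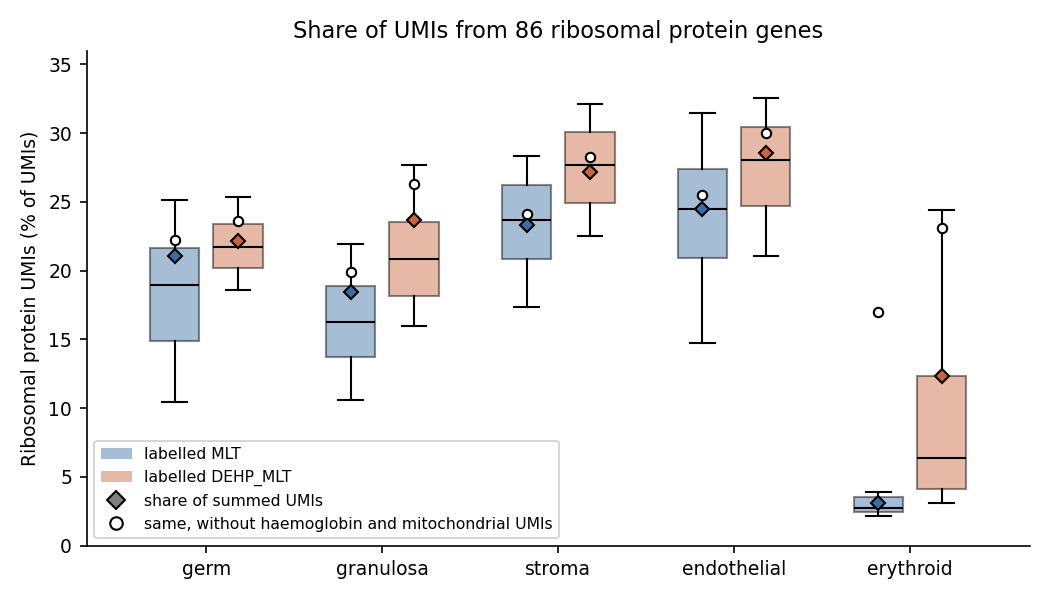
The share of UMIs from the 86 ribosomal protein genes, in percent, in the 5 classes of each library (blue, labelled MLT; orange, labelled DEHP_MLT). Boxes span the 25th to 75th percentile of cells with the median as a line, whiskers reach the 10th and 90th percentile, diamonds are the share of summed UMIs and open circles the same without haemoglobin and mitochondrial UMIs. The erythroid diamonds, at 3.13% and 12.4%, lie under every other class, and the erythroid open circles rise to 17.0% and 23.1%.

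Among cells of a class the share was widest apart in erythroid cells and moved with the depth of granulosa cells. Cells are not replicates, so these are descriptions. In the erythroid cells labelled DEHP_MLT the 10th and 90th percentile of cells were 3.12% and 24.4%. When these 584 cells were ordered by haemoglobin share into 4 groups of 146 cells, the ribosomal share outside haemoglobin and mitochondrial UMIs was 31.1% in the lowest group and then 15.5%, 14.9% and 13.5%. Most of that fall lay between the first and second group, where haemoglobin rose from 18.8% to 43.4% of UMIs. The 33 erythroid cells labelled MLT did not show it: their 4 groups of 8 or 9 cells gave 15.5%, 17.5%, 17.6% and 18.6%, and even the lowest held 66.7% haemoglobin.

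In granulosa cells the share rose over 4 groups of cells ordered by UMIs per cell, from 14.3% through 15.8% and 17.0% to 19.98% in the first library and from 18.2% through 19.8% and 21.2% to 26.6% in the second. Mitochondrial UMIs in the same groups ran from 7.01% to 7.42% and from 7.44% to 9.98%. Germ cells varied less: over 4 groups of UMIs per cell their share was between 17.1% and 21.4% in the first library and between 21.7% and 22.4% in the second. When germ cells were ordered by the summed level of growing-oocyte genes such as Zp3, Gdf9 and Nlrp5, the 4 groups gave 20.2%, 20.4%, 20.5% and 23.2% in the library labelled MLT. In the library labelled DEHP_MLT they gave 21.2%, 22.7%, 22.6% and 22.1%. The group highest in these genes thus had the top share of summed UMIs only in the library labelled MLT, and no order was shared. By the median over cells it had the top share in neither library, at 19.2% and 21.5%. The next group down was then highest, at 19.5% and 22.3%. Stromal cells with at least 10 UMIs of mitosis genes (such as Mki67 and Top2a) per 10000 had a lower ribosomal share than the others in both libraries, 19.9% against 24.3% and 23.5% against 28.3%. They also had more UMIs per cell, with medians of 14930.0 against 10355 and 16574 against 10927 UMIs. The part of depth in this difference was not tested. In granulosa cells the same split gave 17.0% against 18.5% (61 and 695 cells) in the library labelled MLT, and 24.0% against 23.7% (7 and 336 cells) in the other.

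**Figure D2:**
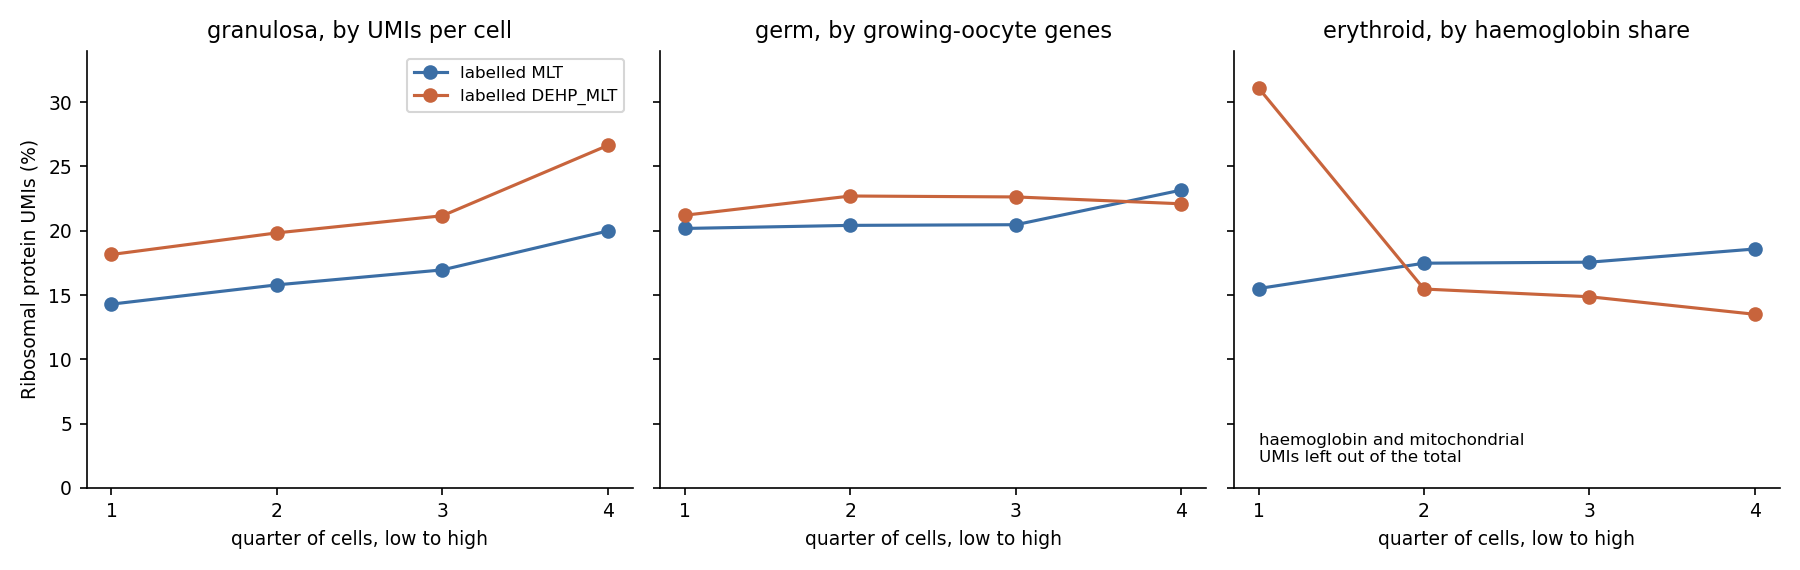
The share of ribosomal protein UMIs, in percent, over 4 equal groups of cells from low to high: granulosa cells by UMIs per cell, germ cells by the level of growing-oocyte genes, and erythroid cells by haemoglobin share with haemoglobin and mitochondrial UMIs left out of the total. Each point is the share of the group's summed UMIs in 1 library. The granulosa lines climb to 19.98% and 26.6%, and the erythroid line labelled DEHP_MLT falls from 31.1% to 13.5%.

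Which members differed between classes was tested with edgeR's quasi-likelihood test on the 10 sums (5 classes in 2 libraries), each class against the mean of the other 4 with library as a block, and with Benjamini-Hochberg adjustment over all 11195 genes tested at 0.05. The block takes out the mean difference between the libraries. The p-values thus rest on how far the class differences disagree between the libraries, which carry different treatments, with the spread estimated over all 10 sums. All members but Rpl3l, a muscle paralog of Rpl3 with at most 0.460 CPM in any class, were tested, so the counts are out of 85. In this fit 51 of the 85 were called in no class, 21 in 1, and 13 in more. A gene that was not called is not shown to be level between classes, and leaving out the erythroid class changed the counts. Rpl10l and Rpl39l were called in 4 classes and Rplp0 in 3. A smaller share of members than of all genes was called in each class.

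In germ cells 6 members were higher (38.1% of all genes were) and 8 lower (40.5%), 14 of 85 in all, where 78.6% of all genes were called. In granulosa cells none was higher (33.0% of all genes were) and 13 were lower (28.8%), with 61.8% of all genes called. In stroma 3 were higher (30%) and 2 lower (31.2%), with 61.2% of all genes called. In endothelial cells 14 were higher (25.3%) and 3 lower (27.6%), with 53.0% of all genes called. In erythroid cells 2 were higher (21.9%) and 1 lower (32.3%), with 54.3% of all genes called. The median member was at -0.16, -0.26, 0.13, 0.33 and -0.05 on the log2 scale in these classes, where the median gene was at -0.06, 0.01, -0.05, -0.08 and -0.31.

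Many of these calls depended on the library block and on the scaling factors. Without the block, 9 of the 14 calls held in germ cells, 2 of 13 in granulosa cells, 2 of 5 in stroma, 3 of 17 in endothelial cells and 1 of 3 in erythroid cells. On library totals with no scaling factors 6, 2, 4, 4 and 1 of them held. The granulosa calls that held were those of Rpl10l and Rpl39l under both settings, and none of the 8 granulosa calls of standard genes did.

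The counts depended on the erythroid class, whose members differed most between the libraries. With that class left out of the fit, a choice made after the data were seen, 10 members were higher in germ cells (40% of all genes were) and 43 lower (45.3%), with 85.3% of all genes called. In granulosa cells 1 was then higher (33.2%) and 65 were lower (36.5%), with 69.7% of all genes called. In stroma 35 were higher (32.8%) and 6 lower (37.1%), with 69.8% of all genes called. In endothelial cells 69 were higher (30.5%) and 3 lower (33.6%), with 64.1% of all genes called. On that fit the share of members called was 62.4%, 77.6%, 48.2% and 84.7%, above that of all genes in granulosa and endothelial cells and below it in germ cells and stroma.

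A second scaling, to the ribosomal protein UMIs of each sum, shows which members stood apart from the rest of the set and not from the whole transcriptome. On it 17 members were higher in germ cells (44.7% of all genes were) and 8 lower (32.3%), with 77.0% of all genes called. In granulosa cells 3 were higher (47.0%) and 6 lower (15%), with 62.0% called, and in stroma 2 were higher (26.0%) and 4 lower (32.0%), with 58.0% called. In endothelial cells the 14 higher calls became 2 (18.1%), with 5 lower (41.8%) and 59.9% called, so most endothelial calls were not made against the rest of the set. In erythroid cells 4 were higher (17.5%) and 3 lower (40.6%), with 58.1% called.

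The ribosomal stalk is formed by Rplp0 with Rplp1 and Rplp2 and recruits the elongation factors. Rplp0, its base, had the largest log2 difference of a class among the standard genes tested. It was at 1479.9 and 1666 CPM in germ cells, 1770.2 and 2174 in granulosa cells, 3758 and 4642 in stroma, 3882 and 4675 in endothelial cells and 534 and 3879 in erythroid cells. Germ and granulosa cells were low, stroma and endothelial cells high, and the erythroid values of the libraries far apart. Rplp0 was lower in germ cells (log2 -1.30, adjusted p = 0.00247, edgeR quasi-likelihood test) and in granulosa cells (-0.94, adjusted p = 0.0195), and higher in erythroid cells (1.08, adjusted p = 0.00685). The granulosa call was lost without the library block (adjusted p = 0.108) and on library totals (0.486). The erythroid direction depends on scaling and was log2 -0.56 on library totals, where the median gene shifts to -1.79. The partners Rplp1 and Rplp2, at 3856 and 4161 CPM and 2704 and 2912 CPM in germ cells and 4772 and 5448 CPM and 3121 and 3633 CPM in stroma, were called in no class.

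Among the other large-subunit genes, those lower in germ cells were Rpl9, Rpl39, Rpl3, Rpl24 and Rpl38. Rpl9 was at 1441 and 1659 CPM in germ cells, 2885 and 3763 in granulosa cells, 2957 and 3574 in stroma, 3095 and 3573 in endothelial cells and 313 and 1299 in erythroid cells. Its germ values were under those of every other class but erythroid in both libraries, and it was lower by the test (log2 -1.02, adjusted p = 0.00105, edgeR). Reads of Rpl9 can be shared with its processed copies, and Rpl9-ps6, at 22.7 and 20.9 CPM in germ cells and 49.1 and 43.6 CPM in stroma, was also low in germ cells. Rpl39, a small protein that lines the peptide exit tunnel, was at 1623 and 1625 CPM in germ cells against 2931 and 3342 in stroma (germ log2 -0.88, adjusted p = 0.00256). Rpl3, which lies near the peptidyl transferase centre, was at 1094 and 1302 CPM in germ cells and 2379 and 2356 in endothelial cells. It was lower in germ cells (-0.82, adjusted p = 0.00238) and higher in endothelial cells (0.60, adjusted p = 0.0148). On library totals with no scaling factors the germ calls of Rplp0, Rpl9, Rpl39, Rpl3, Rpl24 and Rpl38 were lost. Their log2 values there ran from -0.84 to -0.01. Without the library block the germ calls of Rpl24 and Rpl38 were lost (adjusted p = 0.0521 and 0.0606), and so was the endothelial call of Rpl3 (0.0976).

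Rpl35, which sits where the peptide leaves the tunnel, was the standard gene called higher in germ cells. It was at 2312 and 2910.4 CPM in germ cells, 1051 and 1646 in granulosa cells, 1369.8 and 1816 in stroma, 1712 and 2301 in endothelial cells and 251 and 1063 in erythroid cells. Germ cells were the highest class in each library (log2 0.59, adjusted p = 0.0107, edgeR), while granulosa cells were lower (-0.67, adjusted p = 0.0114). Both calls were lost without the library block (adjusted p = 0.177 and 0.174), and the granulosa call also on library totals (0.717). Rpl7a was lower in granulosa cells, at 1020.4 and 1245 CPM against 1702 and 2080.0 in germ cells (-0.72, adjusted p = 0.00854). Rpl4, Rpl5 and Rpl7 were also called lower there. Without the block Rpl7a, Rpl4, Rpl5 and Rpl7 missed the threshold, with adjusted p values from 0.102 to 0.206. Rpl5, with Rpl11, binds the 5S RNA and can restrain Mdm2.

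Endothelial cells had the highest values of several large-subunit genes. Rpl29 was at 1728 and 2126 CPM in germ cells, 1691 and 2660.1 in granulosa cells, 1954 and 2841 in stroma, 2663 and 3756 in endothelial cells and 256 and 1150.1 in erythroid cells. Both endothelial values were the highest of their library, and it was called higher (log2 0.72, adjusted p = 0.00692, edgeR). Rpl15 was at 3602 and 4123 CPM in endothelial cells and 2795 and 3338 CPM in stroma (0.66, adjusted p = 0.0139). The endothelial calls of Rpl3 and Rpl15 were not kept when the sums were scaled to ribosomal protein UMIs (adjusted p = 0.209 and 0.0817). Rpl6, Rpl7, Rpl9, Rpl24, Rpl30, Rpl31 and Rpl37a were also called higher in endothelial cells, between log2 0.45 and 0.54. None of these calls was kept with that scaling (adjusted p from 0.288 to 0.635, edgeR). Without the library block the endothelial calls of all the large-subunit genes named here were lost, with an adjusted p of 0.145 for Rpl29 and 0.111 for Rpl15. Rpl41, the smallest of the ribosomal proteins, was called higher in erythroid cells (0.57, adjusted p = 0.0276), where it was at 1275 and 1947 CPM. That result rests on the 33 cells labelled MLT: relative to the median member it was 1.32 higher there and 0.01 higher in the other library, its sign turned (-1.27) on library totals, and without the block the adjusted p was 0.0981.

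Of the small-subunit genes, Rpsa, a protein also known as the laminin receptor, was lower in granulosa cells. It was at 3817 and 3876 CPM in germ cells, 2149.8 and 2542 in granulosa cells, 3491 and 4289 in stroma, 3655 and 4002 in endothelial cells and 604 and 2409 in erythroid cells. Granulosa values were the lowest outside the erythroid class (log2 -0.85, adjusted p = 0.00649, edgeR). The call was lost without the library block (adjusted p = 0.0629) and on library totals (0.494). Rps2 was the other standard small-subunit gene called there (-0.49, adjusted p = 0.0336, and 0.223 without the block). Rps9 was at 1895 and 2074 CPM in germ cells and 3609 and 4029 CPM in endothelial cells, lower in the first (-0.79, adjusted p = 0.00573) and higher in the second (0.56, adjusted p = 0.0322). Rps29 was called in the same directions in both classes. Without the block the germ call of Rps29 held, while its endothelial call (adjusted p = 0.107) and both calls of Rps9 (0.0547 and 0.187) were lost. On library totals the germ calls of Rps29 (log2 -0.22, adjusted p = 0.609, edgeR) and Rps9 (-0.31, adjusted p = 0.507) were lost. The endothelial calls of Rps9 and Rps29 were also lost when scaled to ribosomal protein UMIs (adjusted p = 0.222 and 0.286, edgeR).

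Rps20, a small-subunit protein, was the most abundant member in germ cells, at 5520.3 and 5508 CPM, on a scale of UMIs that the 3′ assay counts once per transcript without regard to length. It was at 5465 and 6479 CPM in endothelial cells. Its endothelial call (0.64, adjusted p = 0.0243) was lost when scaled to ribosomal protein UMIs (adjusted p = 0.0903) and without the library block (0.153). Rps26, which lies where the mRNA leaves the ribosome, was higher in stroma, at 2544 and 2711 CPM against 1617 and 1720.3 in endothelial cells (0.44, adjusted p = 0.0389). This call too was lost with ribosomal scaling (adjusted p = 0.129) and without the block (0.163).

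Of the standard genes 4 lie on the X chromosome: Rpl10, Rpl36a, Rpl39 and Rps4x. Together they gave 3.66% and 3.88% of the standard members' UMIs in germ cells, 4.22% and 4.41% in granulosa cells, 5.03% and 5.34% in stroma, 4.49% and 4.75% in endothelial cells, and 4.18% and 4.34% in erythroid cells. Germ cells were lowest and stroma highest in each library. Relative to the median member, the X-linked genes ranged in germ cells from -0.72 (Rpl39) to 0.08 (Rpl36a), with a median of -0.25 against -0.01 for the 73 autosomal standard genes. Rpl39 alone of the 4 was called in germ cells. Rpl10, which joins the large subunit at a late step of its assembly, was at 2182 and 2584 CPM in germ cells, 1957 and 2695 in granulosa cells, 3098 and 4276 in stroma, 2871 and 3726 in endothelial cells and 348 and 1243 in erythroid cells, and it was called higher in stroma (log2 0.50, adjusted p = 0.028, edgeR). That call was lost without the library block (adjusted p = 0.23). Rps4x was at 3811 and 4693 CPM in stroma and 2361 and 2542 CPM in germ cells, with a stromal log2 of 0.51 and an adjusted p of 0.0679 that missed the threshold.

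The sharpest difference between classes lay in 2 paralogs that were high in germ cells. Rpl39l, a retrocopy of Rpl39, was at 179 and 238 CPM in germ cells, 9.84 and 12.3 in granulosa cells, 7.97 and 11.4 in stroma, 8.30 and 5.66 in endothelial cells and 5.01 and 12.8 in erythroid cells. Rpl10l, a retrocopy of Rpl10, was at 45.6 and 44.96 CPM in germ cells, 1.54 and 1.42 in granulosa cells, 2.29 and 1.62 in stroma, 0.573 and 0.809 in endothelial cells and 0 and 1.68 in erythroid cells. No class overlapped with germ cells in either library. Rpl39l was higher in germ cells by log2 4.04 (adjusted p = 2.83e-10, edgeR) and Rpl10l by log2 4.69 (adjusted p = 4.79e-10), and both germ calls held under all 9 other settings. Rpl10l reached the 10 CPM needed in at least 2 sums only in the germ sums. It thus entered the main test through the class where it is high, and its p-values add nothing to its CPM values. The lower calls of both in granulosa, stromal and endothelial cells, from log2 -2.73 to -0.93, are the other side of the same germ values, since germ cells enter the mean they are set against. At 0 UMIs, the erythroid cells labelled MLT allow Rpl10l up to 7.52 CPM (3 counts over the class).

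The low values outside germ cells lay near those of germ cell RNA in general. In the other classes the 10 germ markers, among them Ddx4, Dazl and Sycp3, summed to 3.00% to 4.33% of their germ level. Rpl39l was at 2.38% to 5.49% of its germ level there, and Rpl10l at 0% to 5.03%. Rpl39l was above the summed markers in granulosa cells (5.49% and 5.18% against 4.22% and 4.29%) and in stroma (4.45% and 4.79% against 3.84% and 3.65%). In endothelial and erythroid cells it was above them in 1 library and below in the other. Taken singly, the markers ranged from 3.13% to 6.74% and from 3.11% to 7.34% in granulosa cells. In stroma they ranged from 2.65% to 5.37% and from 2.45% to 4.93%. Rpl39l lay inside the range of the single markers in each of these classes in both libraries. The markers also set the germ gate, and cells that passed more than 1 gate were left out, which limits the comparison. Whether these low values are background or expression was not tested.

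Germ cells thus differed from the rest in the make-up of the Rpl39 pair, but the paralog remained the smaller part. Rpl39l gave 9.95% and 12.8% in germ cells, 0.446% and 0.406% in granulosa cells, 0.271% and 0.340% in stroma, 0.298% and 0.170% in endothelial cells and 1.20% and 0.822% in erythroid cells of the UMIs of Rpl39 and Rpl39l together. Rpl10l gave 2.05% and 1.71% of the Rpl10 pair in germ cells and at most 0.135% in any other class. Both partners, Rpl39 and Rpl10, are X-linked, and Rpl39l and Rpl10l lie on chromosomes 16 and 12. The 250 bases before the annotated start of each, which show what precedes these copies, are given next, with CCGGAAG and its reverse complement, CANNTG and TAATTG (on both strands) in capitals where they occur.
Rpl39l (chr16:10169978-10170227, plus strand): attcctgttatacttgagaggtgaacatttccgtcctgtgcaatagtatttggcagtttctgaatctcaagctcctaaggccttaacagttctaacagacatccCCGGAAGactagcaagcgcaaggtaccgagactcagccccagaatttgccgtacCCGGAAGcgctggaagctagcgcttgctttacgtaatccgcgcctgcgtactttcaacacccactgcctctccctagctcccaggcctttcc
Rpl10l (chr12:66284402-66284651, minus strand): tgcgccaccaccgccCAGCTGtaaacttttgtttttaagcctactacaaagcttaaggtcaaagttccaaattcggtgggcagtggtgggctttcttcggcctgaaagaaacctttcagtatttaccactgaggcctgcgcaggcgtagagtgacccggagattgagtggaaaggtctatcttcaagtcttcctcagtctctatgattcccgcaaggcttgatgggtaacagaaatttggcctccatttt
Rpl39l held CCGGAAG 2 times, and Rpl10l held CANNTG 1 time. Over all genes of the promoter table, the same 250 bases held CCGGAAG in 12.2%, CANNTG in 64.7% and TAATTG in 5.96%.

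**Figure D3:**
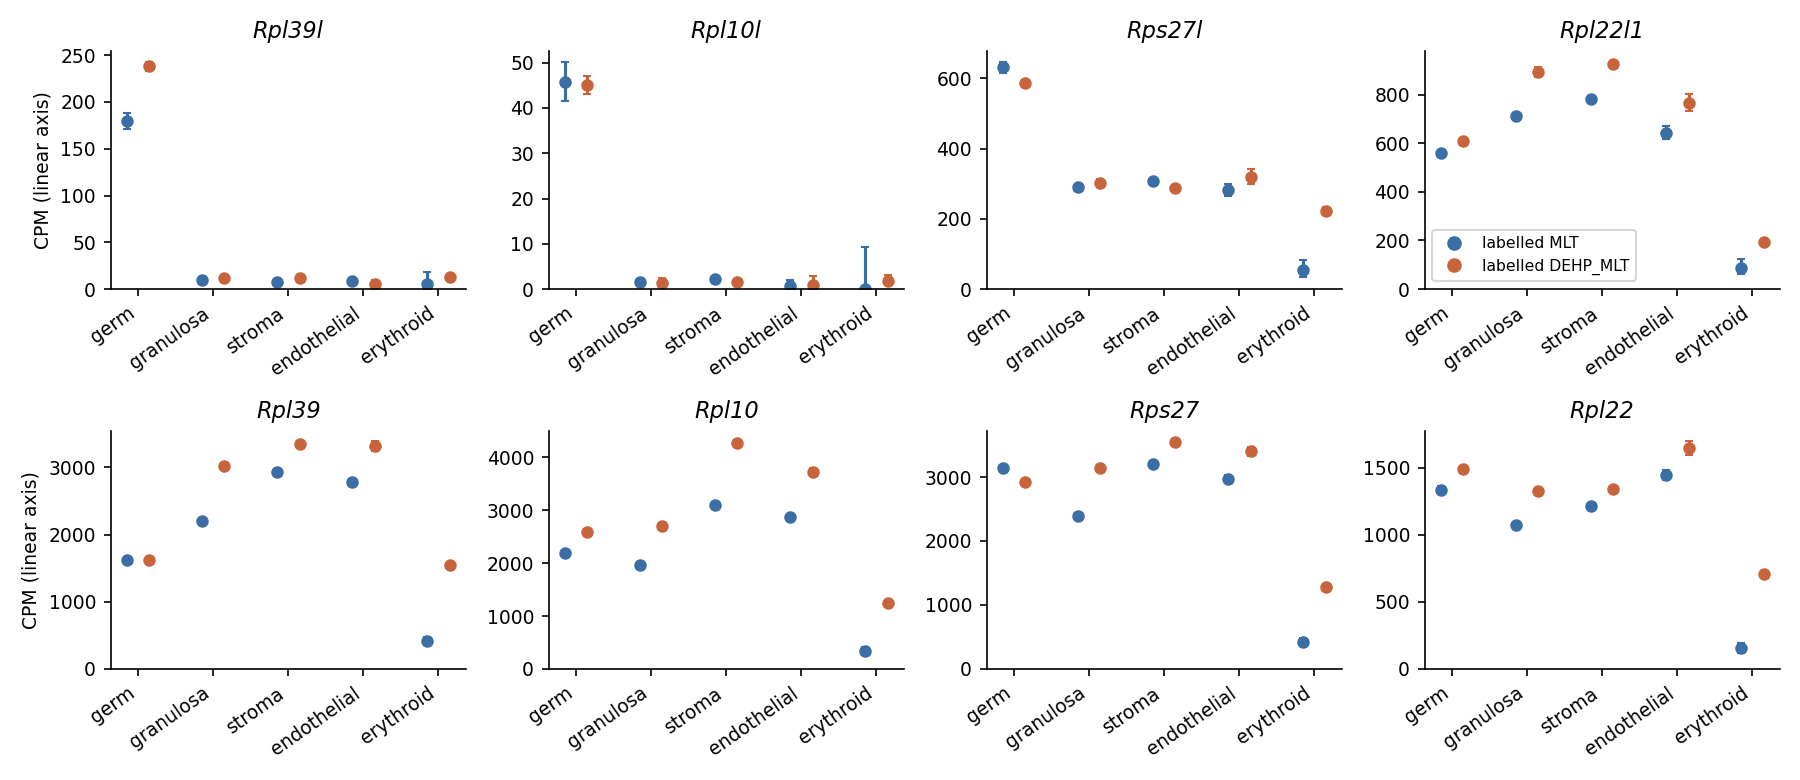
The level in CPM (linear axes) of 4 paralogs (top) and their standard partners (bottom) in the 5 classes of each library; bars are exact Poisson 95% intervals and cover counting error only. Rpl39l and Rpl10l are at 179 and 238 and at 45.6 and 44.96 CPM in germ cells and near 0 elsewhere, while Rpl39 is lowest in germ cells among the non-erythroid classes.

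Rps27l, a paralog of Rps27 known as a target of p53, was at 632 and 586 CPM in germ cells, 289.7 and 303 in granulosa cells, 307 and 289 in stroma, 282 and 319.6 in endothelial cells and 55.1 and 221 in erythroid cells. Germ cells were again the highest class in each library (log2 0.83, adjusted p = 0.00102, edgeR), and the call held under all 9 other settings. Here the other classes kept 8.73% to 54.5% of the germ level, above the 3.00% to 4.33% of the summed germ markers. The lowest of these, in erythroid cells labelled MLT, lay inside the range of the single markers there (0% to 12.8%). Its share of the Rps27 pair was 16.7% and 16.7% in germ cells, 10.8% and 8.79% in granulosa cells, 8.74% and 7.55% in stroma, 8.66% and 8.59% in endothelial cells and 11.6% and 14.7% in erythroid cells. Rps27rt, a retrocopy of Rps27 whose reads may come from the parent gene, was at 63.9 and 49.1 CPM in germ cells and 69.2 and 61.3 in stroma, 1.64% to 2.89% of its pair with Rps27 in every class. Both Rps27l and Rps27rt were among the 13 members called lower in granulosa cells, calls that were lost without the library block (adjusted p = 0.132 and 0.112).

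Rpl22l1, a paralog of the RNA-binding protein Rpl22, showed another order. It was at 558 and 607 CPM in germ cells, 710.2 and 893 in granulosa cells, 782 and 925 in stroma, 643 and 765 in endothelial cells and 87.7 and 192 in erythroid cells. It was called higher in stroma (log2 0.44, adjusted p = 0.0243, edgeR) and lower in erythroid cells (-0.65, adjusted p = 0.0103), and the stromal call was lost with ribosomal scaling (adjusted p = 0.188). Without the library block neither call held (adjusted p = 0.13 and 0.0613). Its share of the Rpl22 pair was 29.5% and 28.9% in germ cells, 39.9% and 40.3% in granulosa cells, 39.2% and 40.8% in stroma, 30.8% and 31.8% in endothelial cells and 36.5% and 21.3% in erythroid cells. Granulosa and stromal cells were thus alike in this share and above germ and endothelial cells in both libraries, while the erythroid values were far apart. Rpl22 itself, at 1337 and 1491 CPM in germ cells and 1215 and 1341 in stroma, was called in no class.

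Rpl36al, the autosomal paralog of Rpl36a, gave 30.8% and 29.6% in germ cells, 28.6% and 26.4% in granulosa cells, 19.6% and 18.6% in stroma, 22.2% and 21.9% in endothelial cells and 29.00% and 23.6% in erythroid cells of its pair. It was called higher in germ cells, at 650.2 and 745 CPM against 439.7 and 485 in stroma (log2 0.41, adjusted p = 0.0296, edgeR). Rpl7l1 was at 65.2 and 66.7 CPM in germ cells and 67.4 and 51.1 in granulosa cells, 2.09% to 4.02% of the Rpl7 pair. It was called lower in granulosa cells (-0.35, adjusted p = 0.0385), but against the median member the libraries fell on opposite sides. Without the library block the calls of Rpl36al (adjusted p = 0.158) and Rpl7l1 (0.154) were lost. Rps19bp1 was at 85.9 and 93.9 CPM in germ cells, 62.3 and 73.6 in granulosa cells, 57.6 and 60.7 in stroma, 39.5 and 48.6 in endothelial cells and 15.03 and 23.2 in erythroid cells. It was higher in germ cells (0.63, adjusted p = 2.56e-04) and lower in endothelial cells (-0.49, adjusted p = 0.00939, and 0.0568 without the block). Rps4l was not analysed here.

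The spread among members was narrow beside that of other genes. It was taken as the SD over members of log2 of the class level over the mean of the other 4 classes, for the 84 members with at least 50 CPM in at least 1 class of each library. The SD was 0.57 and 0.60 in germ cells, 0.31 and 0.36 in granulosa cells, 0.37 and 0.35 in stroma, 0.40 and 0.46 in endothelial cells, and 0.30 and 0.36 in erythroid cells. For 5145 other genes at the same minimum it was between 1.28 and 1.85. Much of the members' spread came from the paralogs: over the 77 standard genes it was 0.34 and 0.33 in germ cells, 0.18 and 0.24 in granulosa cells, 0.16 and 0.16 in stroma, 0.18 and 0.17 in endothelial cells, and 0.29 and 0.32 in erythroid cells. Among the non-erythroid classes, germ cells had the widest spread also without them. The same held for the other genes, at 1.83 and 1.85 in germ cells against 1.28 to 1.53 in the other non-erythroid classes.

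Which members stood out was shared between the libraries, except in erythroid cells. Pearson's r over the 84 members between the libraries was 0.98 in germ cells, 0.94 in granulosa cells, 0.98 in stroma, 0.97 in endothelial cells and 0.18 in erythroid cells. These are descriptions across genes, which are not independent replicates, and the classes of a library enter each other's reference. Without the paralogs the values were 0.95, 0.90, 0.91, 0.90 and 0.21. For the 5145 other genes they were 0.98, 0.96, 0.96, 0.97 and 0.60, so the erythroid class was the least alike of the 5 there too.

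**Figure D4:**
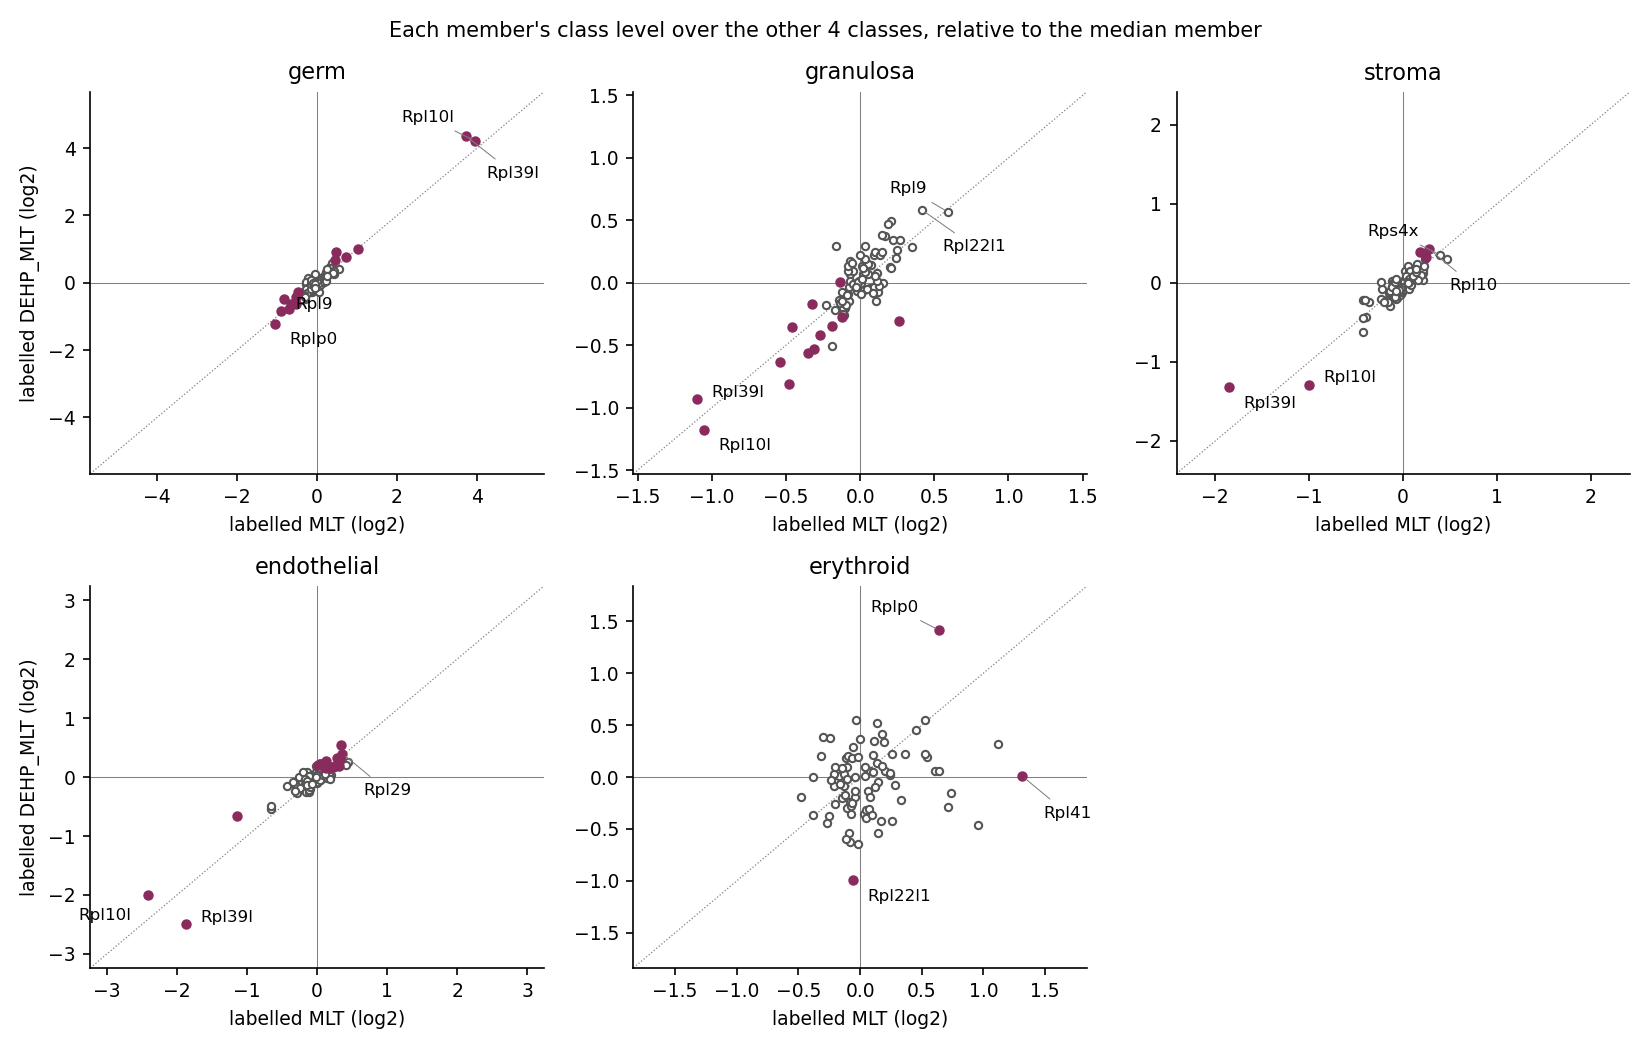
For each tested member, log2 of its class level over the mean of the other 4 classes, relative to the median member, in the library labelled MLT (horizontal) and DEHP_MLT (vertical); filled points were called by edgeR at an adjusted p under 0.05, the dotted line marks equal values and the axis range differs between panels. Points follow the line in 4 classes and scatter in erythroid cells, where r was 0.18.

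Between the libraries, most members were higher in the one labelled DEHP_MLT, by little in germ cells. The log2 ratio of the ribosomal share, labelled DEHP_MLT over labelled MLT, was 0.07 in germ cells, 0.36 in granulosa cells, 0.22 in stroma, 0.22 in endothelial cells and 1.98 in erythroid cells (0.44 in the last without haemoglobin and mitochondrial UMIs). The median member had a log2 ratio of 0.09, 0.35, 0.23, 0.23 and 2.02, where the median gene had -0.04, -0.16, -0.09, -0.12 and 1.94. Of the members with at least 50 CPM, 65 of 84 were above 0 in germ cells, 80 of 83 in granulosa cells, 76 of 83 in stroma, 75 of 82 in endothelial cells and 80 of 80 in erythroid cells. Of all genes at that minimum, 43.2%, 31.0%, 38.9%, 36.3% and 95.8% were above 0 in these classes. The SD over these members was 0.14, 0.16, 0.14, 0.13 and 0.42, against 0.32 to 1.33 over all genes. With 1 library per group these are values without a test.

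Outside erythroid cells few members passed a 1.5-fold difference (at least 50 CPM in a library and exact Poisson 95% intervals apart). None did in germ cells, stroma or endothelial cells, where 1.09%, 1.17% and 1.47% of all genes were higher and 3.26%, 7.57% and 10.8% lower. In granulosa cells 2 were higher (0.689% of all genes were) and none was lower (8.55%). These were Rpl29, at 1691 and 2660.1 CPM, and Rpl35, at 1051 and 1646 CPM. In erythroid cells all 80 with enough UMIs were higher, where 87.6% of all genes were higher and 1.11% lower. There Rplp0, at 534 and 3879 CPM, Rps12, at 466 and 3100.0 CPM, and Rps6, at 205 and 1322 CPM, had the highest ratios, and Rpl41, at 1275 and 1947 CPM, and Rpl38, at 453 and 805 CPM, the lowest. Rps6 is the substrate after which the S6 kinases are named.

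Of the members, 82 had at least 50 CPM in all 4 non-erythroid classes. Of these, 19 had a ratio between the libraries above that of the median member in each of the 4 and 18 below it. The same count was not made over all genes, and the 4 classes come from the same libraries. The counts of 19 and 18 are thus not read as a result about the members. The following 4 of these 37 were picked after their values were seen. Rps29 was at 3020.1 and 2207 CPM in germ cells, 3441 and 3568 in granulosa cells, 4356 and 3588 in stroma and 4993 and 4503 in endothelial cells, on average 0.43 (log2) under the median member's ratio. Rpl27 was at 1294 and 1217, 1425 and 1249, 1517 and 1289 and 1745 and 1451 CPM in these classes, 0.42 under it. Rpl29 and Rpl35 lay 0.27 and 0.23 above it. Fau and Rack1, outside the symbol rule, were at 2981 and 2999 CPM and 1482 and 1639 CPM in germ cells.

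**Figure D5:**
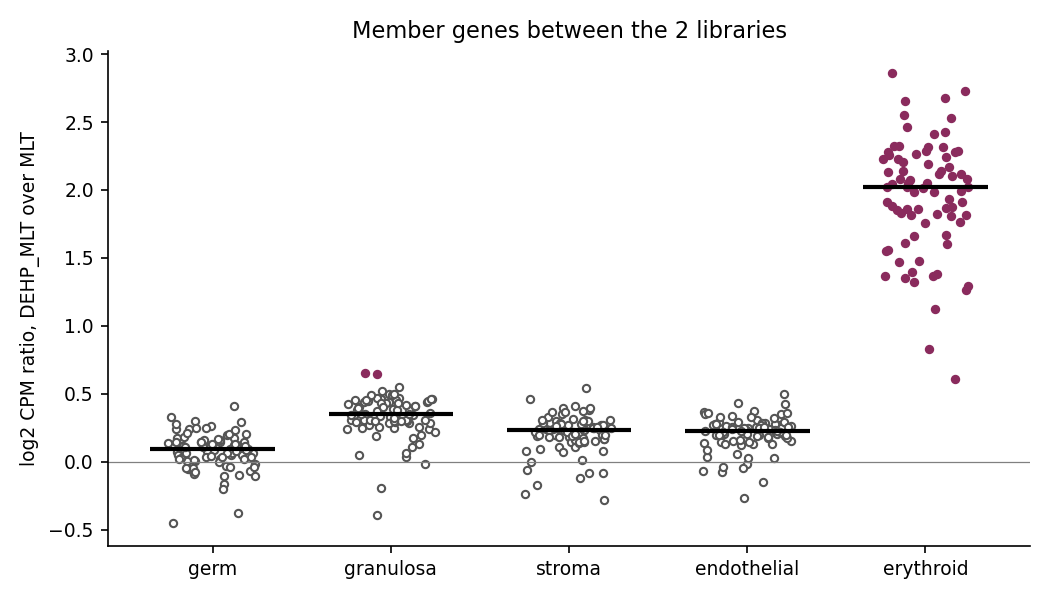
The log2 ratio of CPM, labelled DEHP_MLT over labelled MLT, of each member with at least 50 CPM, by class; the bar is the median member and filled points passed the 1.5-fold rule. The median is 0.09 in germ cells, 0.35 in granulosa cells, 0.23 in stroma and in endothelial cells, and 2.02 in erythroid cells, where all 80 points are filled.

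Other genes of the translation apparatus were counted in the same fit. The percentages of all genes called are those given above for the members. Of 19 tested translation factors and other genes with TOP mRNAs, 3 were higher and 2 lower in germ cells, none and 9 in granulosa cells, 4 and 1 in stroma, 5 and 1 in endothelial cells, and 4 and 4 in erythroid cells. Thus 26.3% of them were called in germ cells and 47.4% in granulosa cells, against 78.6% and 61.8% of all genes. Tpt1, itself a classic TOP mRNA, was lower in germ cells (log2 -1.83, adjusted p = 1.75e-05, edgeR), and so was Pabpc1, the poly(A) binding protein (-1.15, adjusted p = 5.06e-05). Pabpc1 was higher in erythroid cells (2.33, adjusted p = 1.35e-07), and the elongation factor Eef1a1 was higher in endothelial cells (0.66, adjusted p = 0.0155).

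Ribosome biogenesis genes and mitochondrial ribosomal protein genes had more higher calls in germ cells than the cytosolic set. Of 24 biogenesis genes 17 were higher (38.1% of all genes were) and 2 lower (40.5%) in germ cells, with a median log2 of 0.83. In either direction 79.2% of them were called, near the 78.6% of all genes. Bop1 (1.68, adjusted p = 3.09e-07, edgeR) and Nolc1 (1.62, adjusted p = 7.28e-08) had the highest values, while Ubtf, a factor of RNA polymerase I transcription, was lower (-1.19, adjusted p = 2.81e-06). In erythroid cells 2 of the 24 were higher (21.9% of all genes were) and 14 lower (32.3%). Of 78 mitochondrial ribosomal protein genes 66 were higher (38.1% of all genes were) and 2 lower in germ cells, with a median of 0.92, and Mrpl55 was highest (2.19, adjusted p = 5.18e-09). In granulosa cells 2 were higher and 30 lower, in stroma 1 and 27, in endothelial cells 1 and 24, and in erythroid cells 13 and 20. Thus 41.0%, 35.9%, 32.1% and 42.3% of them were called in these classes, a smaller share than of all genes in each. Of 12 mTORC1 genes and regulators of TOP mRNAs, 6 were higher and 4 lower in germ cells. That is 83.3%, near the 78.6% of all genes called, so the count is not read as a result about these genes. Among these Eif4ebp1 was higher (1.14, adjusted p = 3.61e-06) and Eif4ebp2 lower (-1.66, adjusted p = 2.88e-07), both inhibitors of the cap-binding protein.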

How the data were processed

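Ovarian cells of 2 libraries, labelled MLT and DEHP_MLT, were measured. The values deposited by the authors are whole, unnormalized UMI counts for each gene symbol and barcode, 1 table a library, made with Cell Ranger and Seurat 4.2.0 on build mm9, per the submitters' processing notes. Members and gene lists were chosen with earlier results of these data known. Barcodes under 500 genes or over 20% mitochondrial UMIs were dropped, and the rest were gated on the summed level of fixed markers per 10000 UMIs and at least 3 markers detected. Counts were summed per class and library, and genes with at least 10 CPM in at least 2 of the 10 sums were tested with edgeR 4.0.16 (R 4.3.3) with TMM factors and library as a block. The procedure was tested on simulated data. Genes named are, per class, the 5 called members furthest above and the 5 furthest below the median member on the same side in both libraries, the paralogs with their partners, the X-linked members, the most and least abundant member, members past the 1.5-fold rule at the 4 highest and 4 lowest ratios, and extremes of the other lists. Some genes that this rule takes are not reported here. DESeq2 1.42.0 served as an alternative. Depth per sum ran from 399177 UMIs (erythroid, labelled MLT) to 43436252 UMIs (germ, labelled DEHP_MLT). Python 3.11.15, pandas 2.3.3, numpy 2.4.6, scipy 1.17.1 and matplotlib 3.10.9 were used. Cells that fitted immune, perivascular, surface or more than 1 gate were left out.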

Additional observations from a re-analysis of the deposited data

How the results depend on the processing

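No paired analysis was possible because each treatment group has 1 library; in the class fits library was the block. Without that block 9 members were called in germ cells, 2 in granulosa cells, 2 in stroma, 3 in endothelial cells and 1 in erythroid cells, against 14, 13, 5, 17 and 3 with it. Of all genes, 68.9% were called in germ cells without the block. With library totals and no factors the counts were 8 (germ, where 70.7% of all genes were called), 4 (granulosa), 4 (endothelial) and 83 (erythroid). Rpl41 (-1.27, adjusted p = 0.00337, edgeR) and Rplp0 (-0.56) then turned around in erythroid cells. On that scale the median gene moved to 0.36, 0.46, 0.33, 0.16 and -1.79 in the 5 classes. The 83 erythroid calls go with that shift of all genes and are not a result about the members. Scaling to ribosomal protein UMIs gave 25 (germ), 7 (endothelial) and 7 (erythroid), where 77.0%, 59.9% and 58.1% of all genes were called. DESeq2 called 23 (germ, where 75.5% of all genes were called), 27 (endothelial) and 9 (erythroid). Counts given without a share of all genes are not read as results about the members. Its size factors in edgeR gave 5 in erythroid cells, and the stricter gate gave 6. Without the erythroid class, an alternative chosen after seeing the data, 53 (germ), 66 (granulosa), 41 (stroma) and 72 (endothelial) were called. The cause was not tested. Of 276 alternatives to the 31 named results of a gene in a class, 238 kept the direction and the call, 36 kept only the direction and 2 reversed. Leaving out a library leaves the fits without residual degrees of freedom, so calls were not recomputed.

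The mean share moved beyond its SD in germ cells, to 20.3% with equal weight per cell and 22.9% without haemoglobin and mitochondrial UMIs, and in erythroid cells to 20.04% in the latter. Single libraries gave 21.1% to 22.2% (germ), 18.4% to 23.7% (granulosa), 23.3% to 27.2% (stroma), 24.5% to 28.6% (endothelial) and 3.13% to 12.4% (erythroid). The log2 ratio between the libraries under the stricter gate was 0.048 (germ), 0.35 (granulosa), 0.21 (stroma) and 1.86 (erythroid). With cells of at least 6923 UMIs it was 0.063 (germ), 0.35 (granulosa), 0.21 (stroma), 0.21 (endothelial) and 2.08 (erythroid). With equal weight per cell it was 0.24 (germ), 0.25 (stroma), 0.21 (endothelial) and 1.54 (erythroid). Without haemoglobin and mitochondrial UMIs it was 0.086 (germ), 0.40 (granulosa), 0.23 (stroma), 0.24 (endothelial) and 0.44 (erythroid). The sign was positive under each of these. The mean SD among members, 0.59 (germ), 0.34 (granulosa), 0.36 (stroma) and 0.43 (endothelial), was 0.74, 0.43, 0.45 and 0.56 at a minimum of 10 CPM, 0.36, 0.22, 0.18 and 0.19 at 200 CPM, and 0.33, 0.21, 0.16 and 0.18 without the paralogs. The erythroid values labelled MLT rest on 33 cells and 12513 ribosomal protein UMIs, which limits every erythroid comparison.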

Other observations

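In cells kept out of the 5 classes, the ribosomal protein genes gave 18.2% and 15.6% of UMIs in immune-gated cells (160 and 66 cells), with the library labelled MLT first. They gave 18.5% and 21.0% in perivascular-gated cells (84 and 88 cells) and 21.2% and 25.2% in surface-epithelium-gated cells (56 and 36 cells). The immune-gated cells were the only gated kind of the 8 with a lower share in the library labelled DEHP_MLT. Cells were not replicates, and no test was made.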
